A study of Homo sapiens with 6 samples.

Results

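Keratins of simple epithelia and of hair were followed in KYSE450 cells and in KEAP1null-KYSE450 cells. The 9 members were taken by gene symbol from the 58884 rows of the deposited table: the simple keratins KRT8, KRT18, KRT7, KRT19 and KRT20, and the hair keratins KRT86, KRT81, KRT83 and KRT34. Each symbol stood on a single row. KYSE450 is a human esophageal squamous cell carcinoma (ESCC) line with wild-type NRF2, and KEAP1null-KYSE450 was made from it with CRISPR-Cas9 and a guide to exon 2 of KEAP1, the adaptor that sends NRF2 to the proteasome. The edited line is 1 clone, so the loss of KEAP1 and whatever else sets this clone apart from its parent cannot be told apart. Both lines were grown in RPMI1640 medium with 10% serum, penicillin and streptomycin, and no drug treatment is stated for these libraries. RNA sequencing gave 3 libraries of each line, which are not stated to come from separate cultures, so the p-values measure the spread between these libraries. Because RNA was taken from whole cultures, fewer cells that make a keratin and less of its RNA per cell cannot be told apart.

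Keratins form intermediate filaments as obligate pairs of a type II (basic) and a type I (acidic) protein. KRT8 and KRT18 are the first pair made in the embryo and the main pair of simple, single-layered epithelia. KRT7 and KRT19 accompany them in ducts and glands, and KRT20 is known from intestinal and urothelial cells. Squamous epithelia such as the lining of the esophagus instead use KRT5 with KRT14 or KRT15 in the basal layer and KRT4 with KRT13 above it. Hair keratins, among them the type II proteins KRT81, KRT83 and KRT86 and the type I protein KRT34, are rich in cysteine and build the hair shaft and nail. Several of them are also found in tumor cells.

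The type II hair keratins are close copies of one another, which bears on every count given for them. Their coding sequences in gencode v44 were 89.6% identical between KRT81 and KRT86, 89.3% between KRT81 and KRT83 and 89.3% between KRT83 and KRT86, against 68.1% for KRT7 and KRT8. KRT81 and KRT86 are closer still in one place, where a single run of 605 bases, all of them coding, is the same letter for letter in the main transcripts of both. Of all windows of 150 bases, the read length, 25.6% of those in KRT81 and 21.7% of those in KRT86 occur unchanged in the other gene. The other 7 members shared 0 such windows with any other annotated gene. A read from the shared run can be placed in KRT81 or KRT86 equally well, and neither the treatment of such reads in the authors' counting nor the version of its gene models is given in the sources used here. The 2 genes also overlap on chromosome 12. KRT81, on the minus strand from 52285913 to 52291534, lies wholly within the span of KRT86, on the plus strand from 52249300 to 52309163, although their annotated exons share 0 bases. KRT81 and KRT86 are therefore given together below, as 2 counts and as their sum.

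Values are normalized counts, that is, reads per gene divided by 1 factor per library. The 6 libraries summed to between 54829313 and 57380170 normalized counts, and 3 reads, taken as the floor of detection, correspond to 2.77 to 3.21 normalized counts. KEAP1 mRNA did not differ detectably between the lines (log2 fold change -0.02, adjusted p = 0.90, limma), and counts per gene do not show an edit. NQO1, a classical NRF2 target, was 6.48-fold higher in KEAP1null-KYSE450 cells (log2 fold change 2.70). Of the 12 squamous markers listed, all 12 were measured in both lines, TP63, SOX2 and KRT5 among them. Of 5 leukocyte markers, 0 reached a mean of 10 normalized counts, and their sum lay between 1.86 and 16.2 in KYSE450 libraries and between 2.77 and 5.10 in KEAP1null-KYSE450 libraries. Of 6 fibroblast markers, 1 reached that mean (COL1A1), with sums of 622 to 853 against 349 to 436. DCN and COL1A2 were at 0 in all KYSE450 libraries, while LUM had 6.42, 14.2 and 14.0 there and 0 in every KEAP1null-KYSE450 library. COL3A1 had means of 4.85 and 2.64 in the 2 lines, and PDGFRB of 0.337 and 6.01. Of 3 endothelial markers, PECAM1 was at 0 in every library and the sums were 57.8 to 73.8 against 41.5 to 68.6. VWF made up most of these sums, with means of 45.4 and 54.4, and CDH5 had means of 19.9 and 1.97.

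KRT86 fell from the most abundant hair keratin of the parent line to a few reads, KRT81 fell with less certainty, and the KRT8 and KRT18 pair rose together by less than a doubling. The other members were low in both lines or overlapped between them. limma was run on the log2 of each normalized count plus 1 for the 16663 genes averaging 10 or more, and a gene was called when its adjusted p was under 0.05 and its log2 fold change was 1 or more in either direction. Fold changes on this scale understate the change of low genes. Of the 9 members, 7 reached the mean of 10, while KRT20 and KRT34 did not and were not tested. KRT81 and KRT86 reached it through KYSE450 cells and KRT83 through KEAP1null-KYSE450 cells, their means in the other line being under 10. Past both thresholds, 0 members were higher and 2 were lower (KRT86 and KRT81), against 12.2% of all tested genes higher, 6.00% lower and 18.2% in either direction. By adjusted p alone, 2 members were higher (KRT8 and KRT18) and 2 were lower, where 24.3% of all tested genes were higher, 25.5% lower and 49.8% either. Libraries of the 2 lines did not overlap for KRT8 and KRT18, which were higher, and for KRT86 and KRT81, which were lower, a state found in 28.4% of tested genes for higher values, 29.4% for lower values and 57.8% in all. The median log2 fold change of the 7 tested members was 0.71, and that of all genes tested was 0.003. The 7 values ran from -7.56 (KRT86) to 1.41 (KRT83) and the median is that of KRT18, so it describes no shift common to the members.

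**Figure D1:**
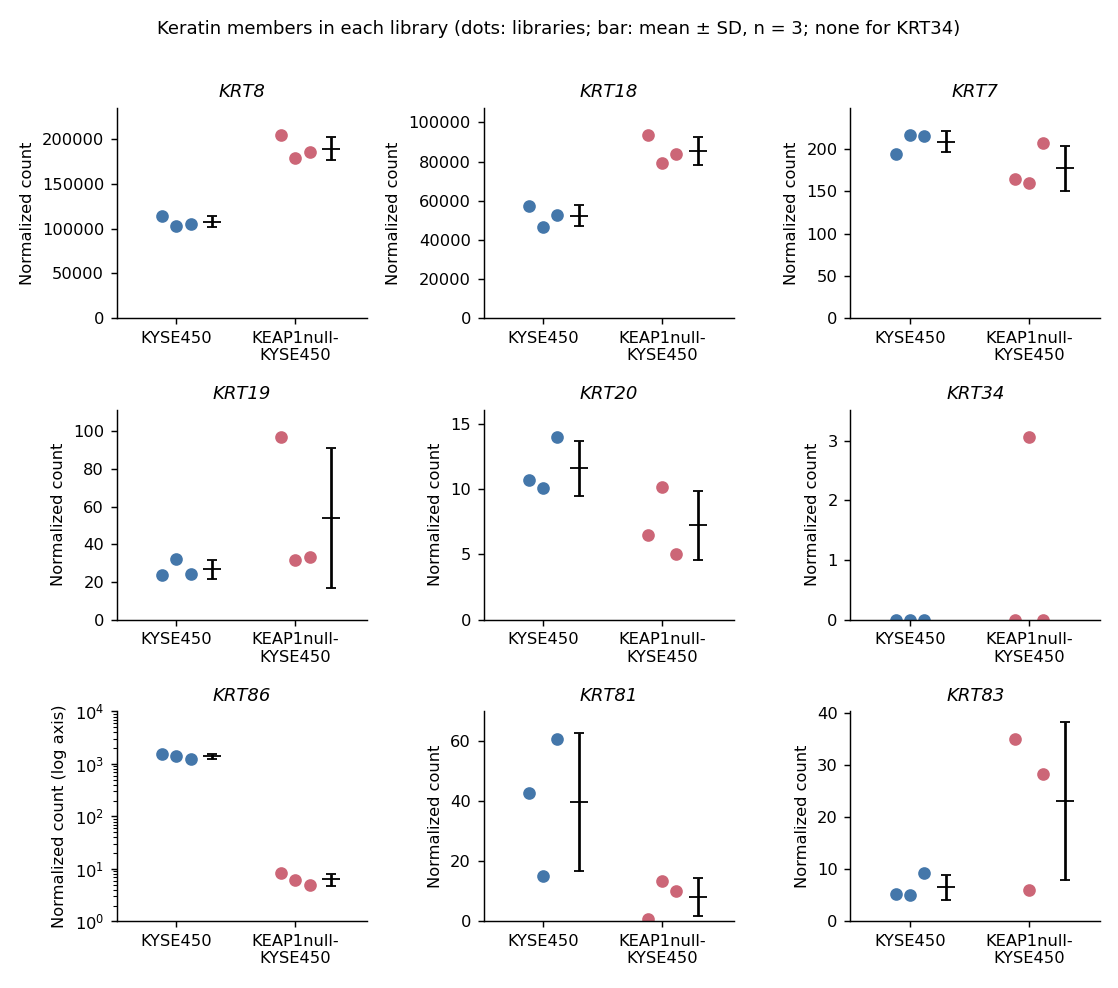
Normalized counts of the 9 keratin members (vertical axes, linear except for KRT86, which is on a log axis) in the 3 KYSE450 and 3 KEAP1null-KYSE450 libraries; dots are libraries and bars are mean ± SD, omitted for KRT34. The 3 KYSE450 libraries of KRT86 lie between 1264 and 1516 and the 3 KEAP1null-KYSE450 libraries between 5.04 and 8.30, while KRT8 and KRT18 are higher in every KEAP1null-KYSE450 library.

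KRT8, the type II member of the simple pair, is listed as ENSG00000170421 and lies on chromosome 12, minus strand, between 52897187 and 52949954 in hg38. KYSE450 libraries 1 to 3 had 114527, 103221 and 105529 normalized counts, against 204014, 178487 and 185609 for KEAP1null-KYSE450 libraries 1 to 3. Every KEAP1null-KYSE450 library lay above every KYSE450 library, and the spread within each line was small, with coefficients of variation of 5.54% and 6.96%. The means were 107759 ± 5974 and 189370 ± 13172 (SD, n = 3 each), which is 1.76-fold higher, or a log2 fold change of 0.81 (SE 0.12, 95% confidence interval 0.55 to 1.07, adjusted p = 0.00013, limma). KRT8 thus passed the adjusted p and not the log2 fold change of 1. It ranked 46th among all genes by normalized count in KYSE450 cells and 17th in KEAP1null-KYSE450 cells.

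KRT18, the type I partner of KRT8, is the only type I keratin outside the chromosome 17 cluster. It is listed as ENSG00000111057 and lies beside KRT8, on the plus strand between 52948871 and 52952906. The parental libraries gave 57270, 46689 and 52715 normalized counts and the KEAP1null-KYSE450 libraries 93312, 79282 and 83875, again with no overlap between the lines. The means were 52225 ± 5308 and 85490 ± 7153 (SD, n = 3 each), 1.64-fold higher, with a log2 fold change of 0.71 (SE 0.12, 95% confidence interval 0.46 to 0.97, adjusted p = 0.00030, limma). By normalized count it moved from rank 121 to rank 74. The spans of KRT8 and KRT18 overlap by 1084 bases on opposite strands and their annotated exons by 525 bases, and no source used here says that strand entered the counting, so reads in that stretch cannot be assigned to one of them.

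The balance within the pair did not differ detectably between the lines. Per kilobase of merged exons, the log2 ratio of KRT8 to KRT18 was -0.17, -0.02 and -0.16 in KYSE450 libraries and -0.04, 0.006 and -0.02 in KEAP1null-KYSE450 libraries. These values overlap, and their means, -0.12 ± 0.08 and -0.02 ± 0.02 (SD, n = 3 each), differed by 0.10 (p = 0.2, exact permutation test, two-sided; the smallest p that 3 against 3 allows is 0.1). A p of this size does not show that the ratios are equal. The sum of the type II simple keratins over the sum of the type I simple keratins differed likewise, by 0.097 on the log2 scale (p = 0.3, exact permutation test). Which of the pair is the more abundant depends on the length used: merged exons give 6881 bases for KRT8 and 3069 for KRT18, while the main transcripts are 1784 and 1413 bases. With the main transcripts, the mean log2 ratio was 0.71 in KYSE450 cells and 0.81 in KEAP1null-KYSE450 cells, so KRT8 stood above KRT18 in all 6 libraries, and the difference between the lines is the same by construction.

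KRT8 and KRT18 have many processed pseudogenes, copies of their mRNA scattered over the genome, and these were counted on rows of their own. The table holds 50 KRT8 pseudogenes, 25 of them above 0 in some library, and 67 KRT18 pseudogenes, 27 of them above 0. Summed, the KRT8 pseudogenes had normalized counts of 1147, 899 and 928 in KYSE450 libraries and 1895, 1729 and 1731 in KEAP1null-KYSE450 libraries, 1.80-fold higher. This sum was 0.871% to 1.00% of the KRT8 count of the same library throughout, so it moved with KRT8. Of the 7 KRT8 pseudogenes tested, 5 were higher at an adjusted p under 0.05 and 0 were lower. Past both thresholds, 3 of them were higher and 0 were lower. The shares of all tested genes were 24.3% higher and 25.5% lower by adjusted p alone, and 12.2% and 6.00% past both. KRT8P3, the most abundant, had means of 532 ± 118 and 966 ± 69.8 (SD, n = 3 each), with a log2 fold change of 0.88 (adjusted p = 0.00050, limma), and KRT8P12 had means of 358 ± 49.3 and 582 ± 19.9. KRT8P3 shares 22.8% of the windows of 50 bases of the main KRT8 transcript without a mismatch, and 39.2% of these windows recur in some other annotated gene, though 0 of 150 bases do. The KRT18 pseudogenes summed to means of 59.0 and 125, between 0.0844% and 0.173% of KRT18. Of 2 tested, 1 was called, KRT18P59 (log2 fold change 2.69, from 4.46 ± 2.83 to 31.7 ± 7.45 normalized counts). KRT18P59 reached the mean needed for the test only through the KEAP1null-KYSE450 line. Adding the pseudogenes to their parents left the log2 fold changes at 0.81 for KRT8 and 0.71 for KRT18. Whether the pseudogene counts are transcripts of their own or misplaced reads of the parents was not tested.

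**Figure D2:**
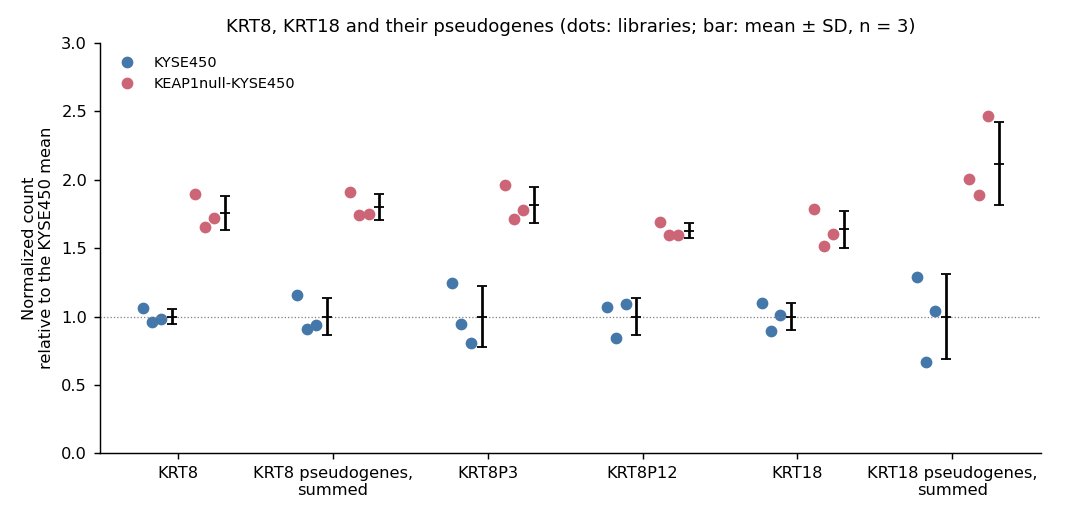
Normalized counts relative to the KYSE450 mean (vertical axis, linear) of KRT8, KRT18, the sums of their pseudogenes, and the most abundant KRT8 pseudogenes, KRT8P3 and KRT8P12; dots are libraries and bars are mean ± SD (n = 3). The KRT8 gene is 1.76-fold and the sum of its pseudogenes 1.80-fold higher in KEAP1null-KYSE450 cells.

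KRT7, a type II keratin of ducts and glands, is listed as ENSG00000135480 and lies on chromosome 12, plus strand, between 52232520 and 52252186. The count was 195, 216 and 215 in the libraries of the parent line and 164, 160 and 208 in those of the KEAP1null-KYSE450 line. KEAP1null-KYSE450 library 3 lay within the range of the parent line, so the groups overlapped. The means were 209 ± 12.2 and 177 ± 26.5 (SD, n = 3 each). This is a log2 fold change of -0.24 with a 95% confidence interval from -0.63 to 0.14 (adjusted p = 0.28, limma). With quantile normalization the log2 fold change was -0.48 (adjusted p = 0.047, limma), the lowest p among its 20 alternatives, and no alternative brought KRT7 past both thresholds. The last 2887 bases of the KRT7 span are also part of the KRT86 span, with 0 bases of shared exons, and the KRT7 counts of the lines overlapped where those of KRT86 did not.

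KRT19, a type I partner of KRT8 in ducts and glands, was low. KYSE450 libraries 1 to 3 had 23.5, 32.3 and 24.2 normalized counts, against 96.9, 31.6 and 33.3 for KEAP1null-KYSE450 libraries 1 to 3. KEAP1null-KYSE450 library 1 stood far above all other libraries, and library 2 lay within the range of the parent line. The log2 fold change was 0.80 (SE 0.43, adjusted p = 0.14, limma) and 0.29 without KEAP1null-KYSE450 library 1. With the 4 libraries whose reads were recovered, which include that library, it was 1.46 by edgeR (adjusted p = 0.055) and 1.44 by DESeq2 (adjusted p = 0.080). All 5 KRT19 pseudogenes in the table were at 0 in every library.

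KRT20, a type I keratin of intestinal and urothelial cells, stayed just under the mean needed for the test. The parental libraries gave 10.7, 10.1 and 14.0 normalized counts and the KEAP1null-KYSE450 libraries 6.46, 10.2 and 5.04. The lines overlapped at KEAP1null-KYSE450 library 2. When genes of any level were tested, the log2 fold change was -0.65 (adjusted p = 0.47, limma).

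KRT8 and KRT18 also mark columnar epithelium, so a list of columnar and glandular genes was read beside them. Of 28 such genes, 10 were at 0 in every library, among them the intestinal regulators CDX1 and CDX2 and the gastric genes TFF1, TFF2 and CLDN18, and 10 could be tested. Past both thresholds 0 were higher and 3 were lower: MUC1 (log2 fold change -2.66), a cell-surface mucin, and the transcription factors FOXA2 (-1.66) and SOX9 (-1.40). By adjusted p alone 1 was higher, GATA6 (0.86), and 5 were lower, ELF3 (-0.94) and FOXA1 (-0.89) besides those 3. The median log2 fold change of the 10 was -0.50. The list, most of it EPCAM, summed to between 42146 and 48316 normalized counts in KYSE450 libraries and between 40063 and 45949 in KEAP1null-KYSE450 libraries. These ranges overlapped, as did those of EPCAM itself (means 28963 and 28559), so the sum says little of the other genes.

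KRT86, a type II keratin of the hair cortex, was the hair member with a substantial count in the parent line. It is listed as ENSG00000170442, and the 3 libraries of the parent line held 1516, 1388 and 1264 normalized counts, against 8.30, 6.12 and 5.04 in the KEAP1null-KYSE450 line. All KEAP1null-KYSE450 libraries were above the floor of 3 reads and far below the parent line. The means were 1389 ± 126 and 6.49 ± 1.66 (SD, n = 3 each), 214-fold lower, with a log2 fold change of -7.56 (SE 0.23, 95% confidence interval -8.06 to -7.05, adjusted p = 8.6e-11, limma). By normalized count KRT86 went from rank 6761 to rank 17840. edgeR and DESeq2 on the reads recovered in 4 libraries gave log2 fold changes of -7.52 and -7.57.

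KRT81, its neighbour and near copy, is also a type II keratin of the hair cortex and is listed as ENSG00000205426. The count was 42.8, 15.2 and 60.6 in the libraries of the parent line and 0.923, 13.3 and 10.1 in those of the KEAP1null-KYSE450 line. The lines did not overlap, but library 2 of each line came close to the other, and KEAP1null-KYSE450 library 1 held a single read. The means were 39.5 ± 22.9 and 8.09 ± 6.40 (SD, n = 3 each), with a log2 fold change of -2.39 (SE 0.76, 95% confidence interval -4.03 to -0.75, adjusted p = 0.019, limma). The call was lost without KYSE450 library 3 (log2 fold change -1.98, adjusted p = 0.075, limma) and without KEAP1null-KYSE450 library 1 (log2 fold change -1.49, adjusted p = 0.055, limma). It was also lost when the variance was fitted without a trend (adjusted p = 0.075, limma) and when the change was tested against a fold change of 2 (adjusted p = 0.44, limma), and over its 18 alternatives the adjusted p lay between 0.0051 and 0.44.

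Taken as 1 feature, KRT81 and KRT86 had summed normalized counts of 1558, 1403 and 1325 in KYSE450 libraries and 9.23, 19.4 and 15.1 in KEAP1null-KYSE450 libraries. The sum was 98.0-fold lower, a log2 fold change of -6.57 (SE 0.25, adjusted p = 6.4e-10, limma), and moving reads between the pair would not change it. KRT81 made up 2.75%, 1.08% and 4.57% of the sum in KYSE450 libraries and 10%, 68.4% and 66.7% in KEAP1null-KYSE450 libraries. The KRT81 counts of the parent line are thus a small part of a large sum, and what part of them came from KRT86 reads was not tested.

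KRT83, another type II hair keratin, was higher in part of the KEAP1null-KYSE450 libraries. It is listed as ENSG00000170523 and lies next to KRT86, on the minus strand between 52314301 and 52321398. KYSE450 libraries 1 to 3 had 5.35, 5.05 and 9.32 normalized counts, against 35.1, 6.12 and 28.2 for KEAP1null-KYSE450 libraries 1 to 3. KEAP1null-KYSE450 libraries 1 and 3 exceeded every library of the parent line, while library 2 lay within its range. The log2 fold change was 1.41 (SE 0.67, adjusted p = 0.095, limma) and became 2.14 (adjusted p = 0.014, limma) without KEAP1null-KYSE450 library 2, the only one of its 19 alternatives to pass both thresholds. KRT83 has 0 windows of 150 bases in common with another gene, and 12.8% of its windows of 50 bases recur elsewhere.

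KRT34, the type I hair keratin among the members, had 0 in each of the 3 parental libraries and 0, 3.06 and 0 in the KEAP1null-KYSE450 libraries. The single value above 0 equals the floor of 3 reads in its library, so neither a level nor a difference was detectable at this depth. Of the 13 other hair keratins, type I partners of KRT86 among them, 6 were at 0 in every library, and 1, KRT32, could be tested, with 31.4 ± 0.342 and 32.9 ± 7.87 normalized counts in the 2 lines (log2 fold change 0.04, adjusted p = 0.92, limma). KRT33A, too low to test, had 9.63, 5.05 and 2.80 in KYSE450 libraries and 0.923, 1.02 and 0 in KEAP1null-KYSE450 libraries. KRT84, also too low to test, went the other way, with 0 in every KYSE450 library and 0.923, 1.02 and 6.05 in KEAP1null-KYSE450 libraries.

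Genes that regulate or accompany hair keratins did not move as a block. Of 14 listed, 10 were tested, with a median log2 fold change of 0.03. TCHH, the trichohyalin of the inner root sheath, and LEF1, a WNT effector of the hair matrix, were higher (log2 fold changes 2.00 and 1.73), and S100A3, a calcium-binding protein of the hair cuticle, was lower (-1.87). The remaining 7 did not pass both thresholds. Of 9 inner root sheath keratins, 5 were at 0 in every library and 1 was tested and called, KRT74, which had normalized counts of 0, 4.04 and 1.86 in KYSE450 libraries and 126, 81.6 and 76.7 in KEAP1null-KYSE450 libraries. KRT74 reached the mean of 10 only through the KEAP1null-KYSE450 line.

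Levels can be set side by side per kilobase. With merged exons, the members of KYSE450 cells stood in the order KRT18 (17017 ± 1729 normalized counts per kilobase), KRT8 (15660 ± 868), KRT86 (573 ± 51.8), KRT7 (52.2 ± 3.06), KRT81 (20.5 ± 11.9), KRT19 (11.4 ± 2.10), KRT20 (6.06 ± 1.09), KRT83 (3.51 ± 1.27) and KRT34 at 0 (SD, n = 3 each). Of these neighbours, KRT18 and KRT8 overlapped, as did KRT81 and KRT19, and the others did not. In KEAP1null-KYSE450 cells the levels were 27856 ± 2331 for KRT18, 27521 ± 1914 for KRT8, 44.4 ± 6.62 for KRT7, 23.1 ± 15.9 for KRT19, 12.3 ± 8.07 for KRT83, 4.19 ± 3.32 for KRT81, 3.78 ± 1.39 for KRT20 and 2.68 ± 0.69 for KRT86 normalized counts per kilobase, with KRT34 last. KRT86, which stood next to the KRT8 and KRT18 pair in the parent line, was here the lowest member with counts in every library. In this line each member overlapped the next in order except KRT8 with KRT7 and KRT86 with KRT34. Per kilobase of main transcript, KRT8 stood first in both lines, at 60403 ± 3349 against 36960 ± 3756 for KRT18 in KYSE450 cells and 106149 ± 7384 against 60502 ± 5062 in KEAP1null-KYSE450 cells.

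The share of the keratin pool held by hair members, nearly all KRT86 in the parent line, was much smaller in KEAP1null-KYSE450 cells. That of the simple members was slightly larger with merged exon lengths and overlapped with main transcript lengths. Per kilobase of merged exons, the simple members made up 16.7%, 16.9% and 20.4% of the summed keratin level in KYSE450 libraries and 21.1%, 20.9% and 22.6% in KEAP1null-KYSE450 libraries. The means, 18.0 ± 2.09% and 21.5 ± 0.92%, differed by 3.53 percentage points without overlap (p = 0.1, exact permutation test, the smallest possible), but with main transcript lengths they were 26.2% and 28.1% and overlapped (p = 0.4, exact permutation test). The hair members held 0.308%, 0.325% and 0.350% of the pool in KYSE450 libraries and 0.00793%, 0.00586% and 0.00930% in KEAP1null-KYSE450 libraries, again without overlap (p = 0.1, exact permutation test). With main transcript lengths their shares were lower, at 0.163%, 0.171% and 0.183% against 0.00350%, 0.00256% and 0.00405%, and did not overlap either. By merged exons KRT86 alone held means of 0.314% and 0.00103%, so the fall in the hair share was nearly all that of KRT86. In the same pool by merged exons, the basal keratins KRT5 and KRT15 went from 27.3% to 53.2% and from 6.33% to 14.7%. KRT13 went from 24.0% to 6.47%, and KRT17 and KRT6A, keratins of activated and wounded epithelium, from 9.29% to 0.229% and from 13.4% to 0.363%. By main transcripts the mean shares went from 24.7% to 42.6% for KRT5, from 10.8% to 22.2% for KRT15, from 8.98% to 0.196% for KRT17 and from 8.29% to 0.199% for KRT6A.

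**Figure D3:**
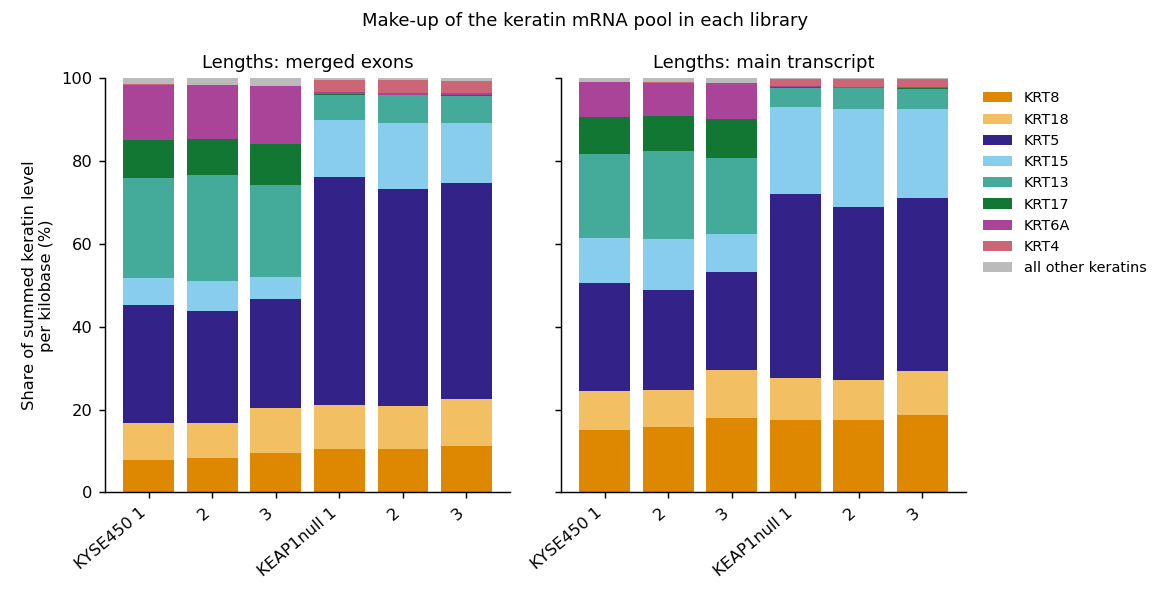
Share of the summed keratin level per kilobase (vertical axis, percent) held by single keratins in each library (bars, 3 per line), with lengths from merged exons on the left and main transcripts on the right. The simple members, nearly all KRT8 and KRT18 at the base of each bar, go from 18.0% to 21.5% of the pool on the left and from 26.2% to 28.1% on the right (means, all simple members), while KRT5 and KRT15 widen and KRT13, KRT17 and KRT6A shrink in KEAP1null-KYSE450 cells.

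The keratin genes sit in a cluster on chromosome 12 (type II, with KRT18) and another on chromosome 17 (type I), and tested neighbours often had log2 fold changes of the same sign. On chromosome 12 these were negative from KRT80 to KRT81 and again for KRT6B, KRT6C and KRT6A, positive for KRT83 between these runs, and positive for every tested keratin from KRT5 to KRT18. On chromosome 17 they were negative for KRT13 and for KRT14, KRT16 and KRT17, and positive for the other tested keratins. Several of these signs belong to small changes that were not called, among them KRT10 (0.03), KRT23 (0.19), KRT32 (0.04) and KRT16 (-0.39). How often neighbours would share a sign by chance was not tested. From KRT80 at one end of the chromosome 12 cluster, the log2 fold changes ran -2.25 for KRT80, -0.24 for KRT7, -7.56 for KRT86, -2.39 for KRT81 and 1.41 for KRT83, of which KRT80, KRT86 and KRT81 were called. KRT80, an epithelial type II keratin, had normalized counts of 941, 523 and 1106 in KYSE450 libraries and 179, 139 and 202 in KEAP1null-KYSE450 libraries. The pseudogene KRT87P, within the KRT86 span, was at 0 in 5 of the 6 libraries. KRT8 and KRT18 close the cluster at its other end, beside KRT4 and KRT78, squamous keratins that were called higher. Along chromosome 17, KRT19 lay between KRT15 (log2 fold change 1.72) and KRT9, which was not tested, with KRT14 (-6.09) beyond it. KRT34 lay among keratins at or near 0. KRT20 lay between KRT12, at or near 0, and KRT23, with means of 19.7 and 22.3 normalized counts.

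**Figure D4:**
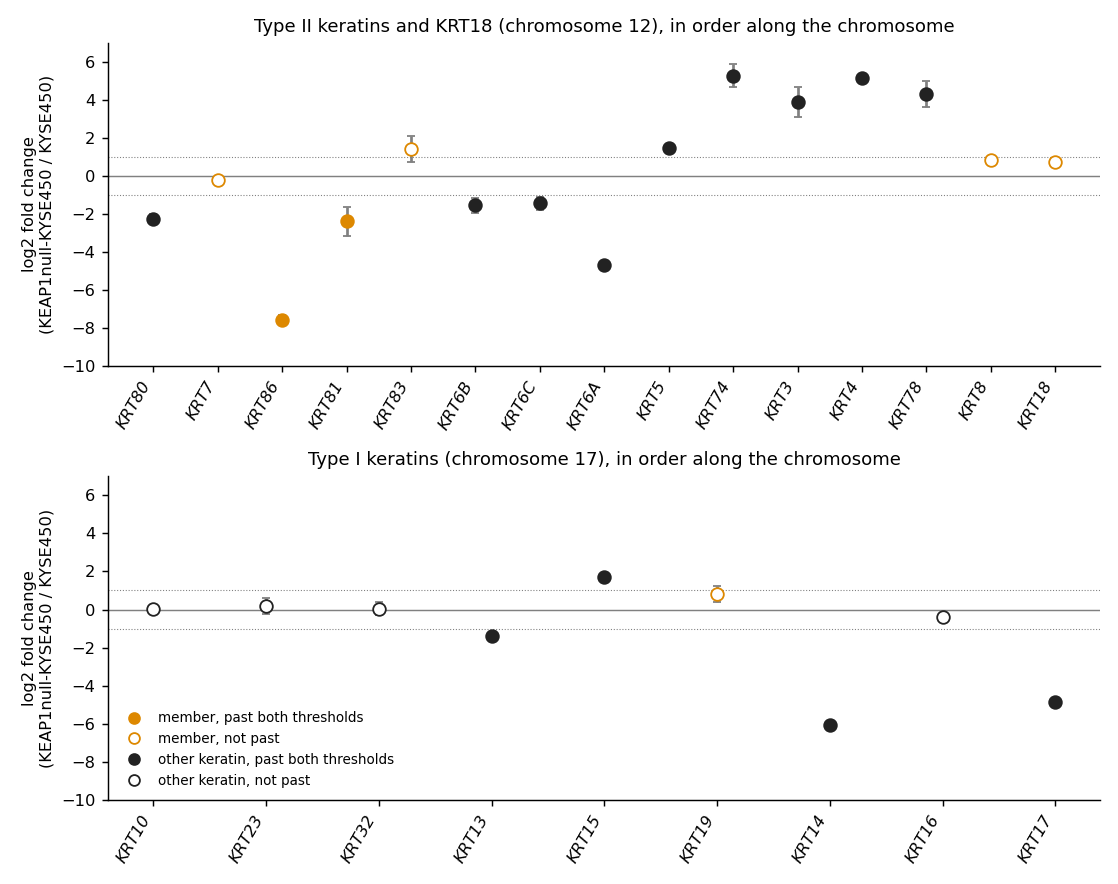
Log2 fold change of KEAP1null-KYSE450 over KYSE450 (vertical axis; bars are standard errors from limma) for each tested keratin in its order along chromosome 12 (top) and chromosome 17 (bottom). Orange marks members and filled points are past both thresholds (adjusted p under 0.05, dotted lines at log2 fold changes of 1 and -1); KRT86 at -7.56 stands between KRT7 at -0.24 and KRT81 at -2.39.

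Among the other type II keratins, 8 of 13 were tested, 4 were higher, 4 were lower and the median log2 fold change was 0.01. The higher ones with the largest changes were KRT4 (5.17), KRT78 and KRT3. KRT78 and KRT3 were at or below the floor in KYSE450 cells. Counting 3 reads for each KYSE450 library, they were at least 10.3-fold and 7.82-fold higher. Both reached the mean of 10 only through the KEAP1null-KYSE450 line. The lower ones with the largest changes were KRT6A (-4.70), KRT80 (-2.25) and KRT6B (-1.56). Of 10 other type I keratins, 7 were tested, with KRT15 higher and KRT14 (-6.09), KRT17 (-4.85) and KRT13 (-1.40) lower, and a median of -0.39. The changes of KRT8 and KRT18 (0.81 and 0.71) were smaller in size than those of the called keratins, as the threshold requires. They were larger in size than those of KRT10 (0.03), KRT23 (0.19) and KRT16 (-0.39), which were not called. That of KRT86 was larger than those of all other keratins tested.

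Proteins that tie keratins to desmosomes or bundle them were also listed. Of 12 linkers and partners, all 12 were tested, 0 were higher and 5 were lower past both thresholds, with a median log2 fold change of -0.58. By adjusted p alone, 1 of them was higher, DST (0.69), and 8 were lower. The shares of all tested genes were 12.2% higher and 6.00% lower past both thresholds, and 24.3% and 25.5% by adjusted p alone. The largest falls were those of EPPK1 (-4.87), an epiplakin that binds KRT8 and KRT18 filaments, PKP1 (-2.95), a desmosomal plakophilin, and DSP (-1.69), the desmoplakin that anchors keratins at the desmosome. EPPK1 had normalized counts of 801, 543 and 459 in KYSE450 libraries and 28.6, 32.6 and 7.06 in KEAP1null-KYSE450 libraries. Of 8 other intermediate filament genes, 6 were tested and 1 was called, LMNA, which encodes the A-type lamins (log2 fold change -1.95). Of the 12 squamous markers, 2 were higher (KRT4 and KRT5) and 4 were lower, KRT14, KRT6A and PKP1 the furthest, with a median of -0.50. Of the endothelial markers 1 was called, CDH5, at least 6.76-fold lower. CDH5 reached the mean of 10 only through KYSE450 cells.

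Genes whose profile over the 6 libraries was most like that of a member were named by the root mean square difference of log2 values, centred on the KYSE450 mean, among 12335 genes with a mean of at least 100. For KRT18 they were TSHZ1 (0.024), NUMBL (0.030) and SESN2 (0.031). For KRT7 they were PRADC1 (0.041), PRPSAP1 (0.052) and BAG1 (0.059). The profile of KRT81, with its wide spread between libraries, had no close match, the nearest being PDE10A (0.87), GXYLT2 (0.88) and ALDH3B1 (0.92).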

How the data were processed

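RNA sequencing of 3 libraries of KYSE450 and 3 of KEAP1null-KYSE450 cells was analysed. The signal that the authors deposited is a normalized count per gene. By the methods and processing notes, reads of 150 bases from a NEBNext Ultra library were checked with FastQC (version 0.11.5), trimmed with cutadapt (version 1.12), aligned to hg38 with STAR (version 2.6.90c) and counted with featureCounts (version 1.5.1), and the matrix was normalized. The methods name a RefSeq annotation, whereas the rows of the table carry Ensembl gene IDs, so the gene models behind the counts may differ from those used here for lengths and overlaps. The version of the annotation, the strand setting and the treatment of reads with several matches are not given in the sources used here. Columns carry the name of the line alone, and libraries are numbered here by column order within a line. In 4 of the 6 libraries whole reads were recovered from the values (100% of values, within 0.01 of a read), 53027359 to 61543442 per library. In the other 2 libraries 1 read was worth 1.01 normalized counts, too near 1 for the recovery to be accepted, and these were left out of the count tests. Floors cover counting error only, and confidence intervals come from the spread between libraries.

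For a symbol on several rows, that with the highest mean was kept. The lmFit and eBayes functions of limma (version 3.58.1, under R 4.3.3), with a variance trend, compared log2(normalized count + 1) for genes averaging 10 or more, two-sided, with Benjamini-Hochberg adjustment over the 16663 genes tested. Ratios and shares were compared by exact permutation tests over libraries. edgeR (version 4.0.16, quasi-likelihood, TMM) and DESeq2 (version 1.42.0) on the recovered reads of 4 libraries were alternatives. The fits were tested on simulated data with known changes. Positions, lengths and sequence comparisons came from gencode v44 and hg38, and exon sequences are not reported here. Of the 58884 rows, 56686 were in that annotation. Named genes are the members, KEAP1, NQO1, up to 3 called genes a list in each direction with the largest changes, the largest pseudogenes, and the 3 closest profiles of KRT7, KRT18 and KRT81; genes named beside these were chosen after their values were seen. The members and lists were chosen with earlier results of these data known.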

Additional observations from a re-analysis of the deposited data

How the results depend on the processing

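No log2 fold change of a member changed sign under any alternative that was run. The count of members lower past both thresholds was 2 and became 1 with a minimum mean of 100, in the test against a fold change of 2, with eBayes without trend, and with KRT81 and KRT86 summed, and lay between 1 and 2 when each library was left out. KRT81 was the member lost in each of these, and a minimum mean of 100 or the sum removes it by construction. The count of members higher was 0, became 2 by adjusted p alone (KRT8 and KRT18), and lay between 0 and 1 with each library left out, the 1 being KRT83 without KEAP1null-KYSE450 library 2. The difference in the hair share of the keratin pool was -0.320 percentage points and -0.169 with main transcript lengths, where the hair members still did not overlap. For KRT86 alone these differences were -0.313 and -0.165. KRT86 lay between -8.10 and -6.41 on the log2 scale over its 20 alternatives, with adjusted p up to 8.3e-06 (limma, edgeR or DESeq2), KRT81 between -3.06 and -1.40, KRT83 between 0.67 and 2.14, KRT19 between 0.29 and 1.46, KRT8 between 0.65 and 0.86, and KRT18 between 0.61 and 0.78. Over all genes, 2039 were higher and 999 lower, against 625 and 394 in the test against a fold change of 2, and 873 and 683 with a minimum mean of 100. Quantile normalization gave 1387 and 1286, which took the higher share of calls from 67.1% to 51.9%. No paired analysis was possible because the columns of the table carry no replicate numbers. Depth limits KRT19, KRT20, KRT34, KRT81 and KRT83, whose counts were under 100 in every library, and the study has 1 edited clone.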
